A study of Mus musculus with 18 samples.

Results

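The genes described here are 42 genes of the cell division cycle, found in the count table by their gene symbols. All 42 had a row among the 54347 genes of the table, and all 42 passed the filter on low counts, as did 14949 genes in all. They were placed by the phase in which they are best known to act, which gave 9 genes of the passage from G1 into S phase (G1/S), 10 genes of DNA synthesis (S) and 23 genes of G2 and mitosis (G2/M).

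A dividing cell is driven through its phases by cyclin-dependent kinases, which are switched on by cyclins that are made and destroyed in turn. D-type cyclins with CDK4 lift the retinoblastoma block on E2F factors, which turn on the genes of DNA replication, and a later wave of genes for the spindle, the chromosomes and their separation is turned on through the MuvB complex with B-MYB and FOXM1. Fat cell precursors leave this cycle as they differentiate, so transcripts of the wave of mitosis in a differentiated culture are read as a trace of remaining proliferation.

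The cells were wt1-SAM brown adipocytes, differentiated from immortalised mouse brown preadipocytes. The line bears SAM, a machinery for gene activation by CRISPR. On day 4 of differentiation they were reverse transfected with locked nucleic acid gapmers (LNAs), short antisense oligonucleotides that lead to cleavage of the RNA they bind, and they were harvested on day 7. Each well of 500000 cells received 1.4 µl of LNA at 10 µM. The LNA was ctrlA, which has no target, or LNA1 or LNA2, which are directed at the long non-coding RNA Gm15551, and the cells were either left unstimulated or given 1 µM isoproterenol, a β-adrenergic agonist, for 24 h. This gave 6 groups with 3 libraries of polyadenylated RNA each, numbered 2, 3 and 4, all from 1 cell line. The oligonucleotides are shown because every comparison of LNAs below rests on them, 5′ to 3′, in lower case throughout.
ctrlA: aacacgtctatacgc
LNA1: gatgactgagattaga
LNA2: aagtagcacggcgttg

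Library totals ranged from 9167560 to 19723021 counts. Levels are given as CPM, counts relative to the TMM-corrected size of each library. Gm15551 itself was at 1 to 14 counts per library and did not pass the filter. Its level was 0.129 to 0.794 CPM in the 6 ctrlA libraries, 0.0794 to 1.02 CPM with LNA1 and 0.07 to 1.07 CPM with LNA2, so the ranges overlapped and the targeted RNA could not check the labels at this depth. All 10 adipocyte markers were detected, with a summed level of 12076 to 25892 CPM, most of it Fabp4 at 7081 to 20719 CPM. The brown fat markers among them were low in unstimulated cells, with group means of 1 to 1.33 CPM for Ucp1 and 6.31 to 8.09 CPM for Cidea. After isoproterenol these means were 11.2 to 15.1 CPM and 15.4 to 19.7 CPM. The lowest count of Ucp1 in a library was 7. Of the 11 preadipocyte and fibroblast markers Dpp4 and Cd55 were at 0 counts in every library, but 7 passed the filter. Col3a1 was at 110 to 286 CPM and Col1a1 at 65.4 to 246 CPM. Pdgfrb was at 11 to 28.8 CPM, Ly6a at 5.68 to 63.3 CPM and Pdgfra at 6.74 to 16.4 CPM. Cd34 and Pi16 were at 0.305 to 2.3 CPM. Transcripts of precursor or fibroblast type were thus present. Of the 7 macrophage and leukocyte markers Ptprc, Adgre1 and Cd3e never exceeded 3 counts, while Cd68 was at 7.83 to 42.4 CPM. The 6 libraries numbered 2 stood apart from the other 12 and are described below, before the comparisons of the groups.

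Transcripts of all phases were abundant on day 7. Over the 18 libraries the median level of a gene ranged from 8.02 CPM for Ccnd1 to 446 CPM for Pcna, and the lowest count of any member in any library was 53. Per kilobase of transcript, Pcna, the sliding clamp of the replication fork, was highest with a median of 294 CPM per kilobase, which lay above 98.6% of the genes tested. Cdk4, the kinase partner of the D-type cyclins, followed with 121 CPM per kilobase, and Rrm2, a subunit of ribonucleotide reductase, with 105. The median member of the S genes stood at 71.2 CPM per kilobase, that of the G1/S genes at 35.7 and that of the G2/M genes at 24.8. Among the G2/M genes Top2a, the topoisomerase that untangles sister chromatids, was highest with 65.1 CPM per kilobase and Kif23, a motor of the central spindle, lowest with 7.43. The D-type cyclins differed widely on this scale, with 93.1 CPM per kilobase for Ccnd3, 18.3 for Ccnd2 and 2.14 for Ccnd1, the lowest of all members.

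**Figure D1:**
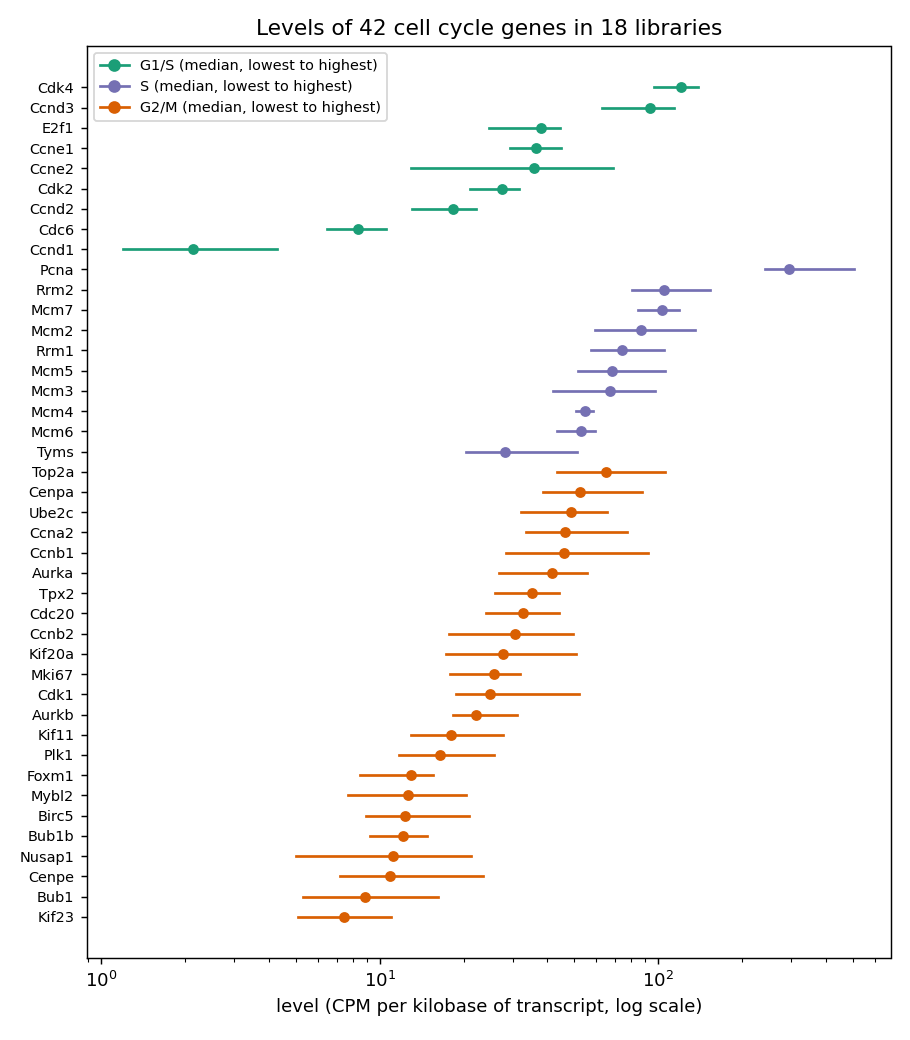
Level of each of the 42 genes in CPM per kilobase of transcript on a log axis, as the median over 18 libraries (point) and the lowest to highest library (line), coloured by phase. Pcna is highest at a median of 294 and Ccnd1 lowest at 2.14, and Ccne2 has the widest line.

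The G2/M genes varied less over the groups than over the replicate numbers. The summed level of the 23 G2/M genes was 2804, 2230 and 1947 CPM in unstimulated ctrlA (replicates 2, 3 and 4), 2783, 2124 and 1871 CPM in unstimulated LNA1, and 2647, 1966 and 1557 CPM in unstimulated LNA2. With isoproterenol it was 3146, 2553 and 2109 CPM for ctrlA, 2860, 2198 and 1758 CPM for LNA1, and 2827, 1876 and 1568 CPM for LNA2. Replicate 2 was thus the highest and replicate 4 the lowest library of every group. The replicate number took up 81.5% of the sum of squares of the log2 sums, the LNA 13.1% and the stimulation 0.883%. Within each replicate number and each stimulation, LNA2 was the lowest of the LNAs.

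For the 10 S genes the replicate number took up 70.4% of the sum of squares, the LNA 5.67% and the stimulation 8.41%. Their summed levels had group means from 2497 ± 223 CPM (SD, n = 3) in unstimulated LNA1 to 2774 ± 225 CPM in stimulated ctrlA, and all groups overlapped. For the 9 G1/S genes the replicate number took up 36.5%, the LNA 32.6% and the stimulation 16%, with group means from 899 ± 57.4 CPM in stimulated LNA2 to 993 ± 25.1 CPM in unstimulated ctrlA. After an offset for GC content, described below, the shares for the G1/S genes were 60.8% for the replicate number, 21.8% for the LNA and 9.82% for the stimulation. In bulk RNA, fewer dividing cells and less of these RNAs per cell cannot be told apart.

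**Figure D2:**
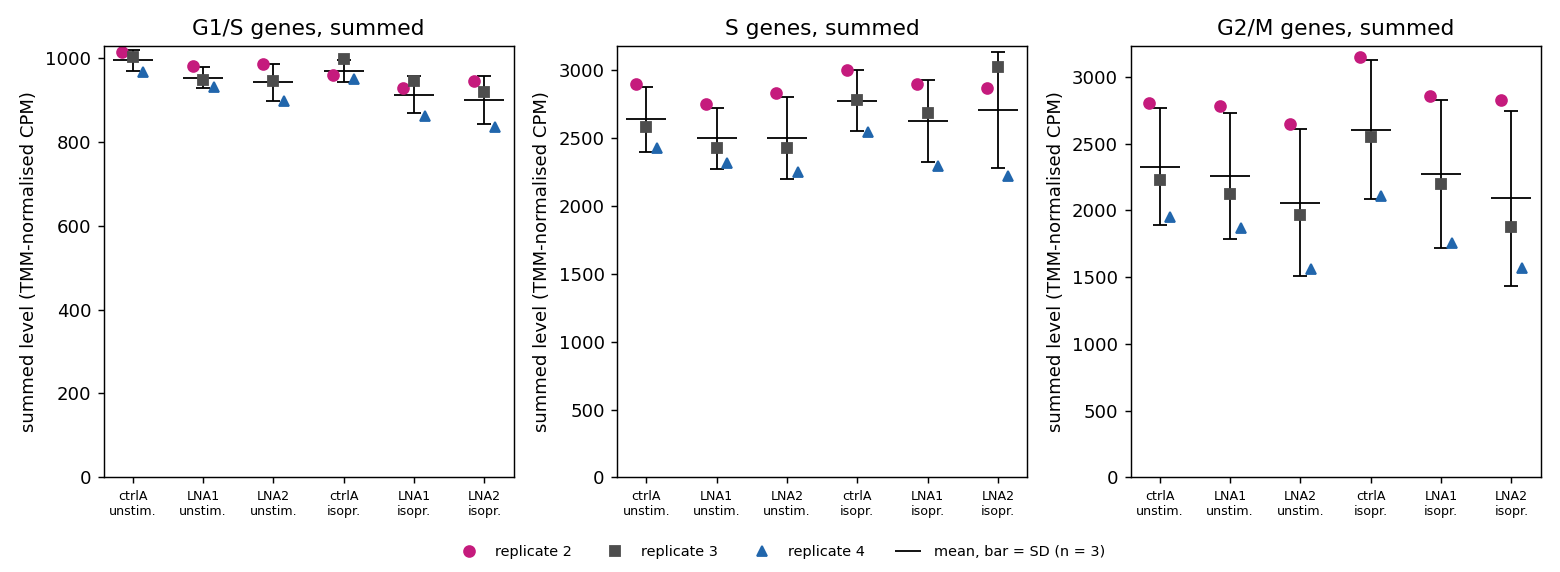
Summed TMM-normalised CPM of the G1/S, S and G2/M genes in each library, by group (unstim., unstimulated; isopr., isoproterenol), with the mean and SD of 3 libraries. In the G2/M panel replicate 2 is the highest and replicate 4 the lowest library of every group, from 1557 to 3146 CPM.

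The libraries numbered 2 differed from the other 12 in many members. In 14 of 42 members all 6 libraries numbered 2 lay above the other 12, in 6 they lay below, and in 22 the ranges overlapped. Over all genes tested 34.5% did not overlap in this way, so that the share among the members, 20 of 42, is to be read against a large background. Of the members that lay above, 11 were G2/M genes, among them Cdk1, the kinase that starts mitosis, whose level was 176 to 228 CPM in replicate 2 and 82.3 to 126 CPM in the others. Pcna was at 713 to 765 CPM in replicate 2 and at 365 to 561 CPM in the others. Those that lay below were Ccnd3, E2f1, Mcm2, Mcm3, Mcm5 and Foxm1. For Mcm2, a subunit of the replicative helicase, replicate 2 was at 199 to 239 CPM and the others were at 284 to 456 CPM.

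The levels by library show how far the replicate numbers parted in both directions. Cdk1 was at 195, 105 and 96.4 CPM in unstimulated ctrlA, at 194, 98.4 and 100 CPM with LNA1 and at 176, 95.6 and 82.3 CPM with LNA2 (replicates 2, 3 and 4), and after isoproterenol at 228, 126 and 111, at 218, 118 and 95.5 and at 206, 107 and 84.9 CPM in the same order of LNAs. Pcna was at 765, 443 and 418 CPM in unstimulated ctrlA, at 724, 417 and 412 CPM with LNA1 and at 750, 426 and 386 CPM with LNA2 (replicates 2, 3 and 4), and after isoproterenol at 759, 462 and 426, at 740, 450 and 365 and at 713, 561 and 373 CPM in the same order of LNAs. In both genes replicate 2 was the highest library of every group. Mcm2 was at 213, 323 and 317 CPM in unstimulated ctrlA, at 199, 305 and 297 CPM with LNA1 and at 214, 288 and 290 CPM with LNA2 (replicates 2, 3 and 4), and after isoproterenol at 222, 328 and 322, at 212, 347 and 292 and at 239, 456 and 284 CPM in the same order of LNAs. Mcm5 was at 193, 253 and 229 CPM in unstimulated ctrlA, at 173, 239 and 231 CPM with LNA1 and at 190, 231 and 214 CPM with LNA2 (replicates 2, 3 and 4), and after isoproterenol at 189, 255 and 237, at 180, 279 and 231 and at 198, 358 and 207 CPM in the same order of LNAs. For these helicase subunits replicate 2 was the lowest library of every group, and stimulated LNA2 numbered 3 was the highest of all.

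The median difference between replicate 2 and replicates 3 and 4 was -0.06 on the log2 scale for the G1/S genes, 0.15 for the S genes and 0.59 for the G2/M genes. This difference moved with base composition. Across the 42 members its Pearson correlation with the GC content of the longest transcript was -0.80, and across 14936 genes it was -0.48. Genes share their libraries here and are not replicates. After an offset for GC content, which took the correlation across all genes to 0.038, the median difference of the G2/M genes was 0.43, that of the S genes 0.11 and that of the G1/S genes 0.04, which is a change of sign. Across the 42 members the correlation with GC content was still -0.45 after the offset. Of the genes for which replicate 2 lay below, Ccnd3 went from -0.51 to 0.04 and E2f1 from -0.60 to -0.06, and Mcm2, Mcm3, Mcm5 and Foxm1 remained at -0.21 to -0.43. Marker levels moved with the replicate number as well. The preadipocyte and fibroblast markers summed to 243 to 338 CPM in replicate 2 and to 364 to 548 CPM in the others, and the adipocyte markers to 16114 to 25892 CPM and 12076 to 19165 CPM. Mitochondrial genes took 0.575% to 0.984% of the counts in replicate 2 and 0.0892% to 0.373% in the others. The part of these in the difference was not tested.

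The library of LNA2 with isoproterenol numbered 3 also stood apart with base composition. The correlation of its deviation from the mean with GC content across all genes was 0.597, the highest of all libraries. In this library Ccne2, a cyclin of S phase entry with a GC content of 36.3%, was at 38.9 CPM, while the other 17 libraries were at 74.6 to 208 CPM. Nusap1, a spindle protein, was at 17.7 CPM and Mcm2 at 456 CPM, the lowest and highest value of each over all libraries.

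**Figure D3:**
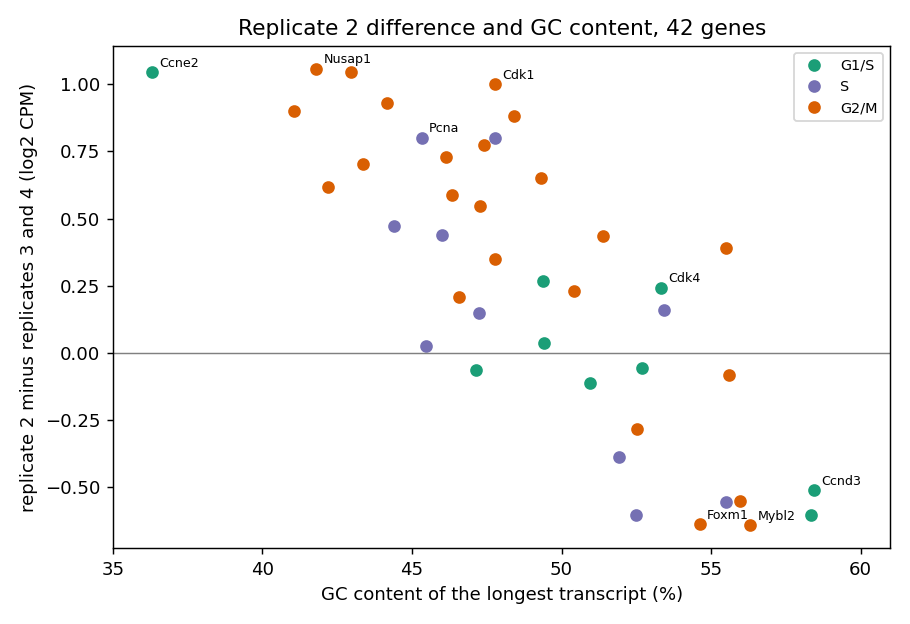
Difference between replicate 2 and replicates 3 and 4 (mean log2 CPM) against the GC content of the longest transcript for the 42 genes, coloured by phase. Genes low in GC such as Ccne2 and Nusap1 lie near 1 and genes high in GC such as Foxm1 and Mybl2 near -0.64, with a Pearson correlation of -0.80.

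Differences between the groups were first tested over all 18 libraries without a term for the replicate number, using edgeR's quasi-likelihood test with Benjamini-Hochberg adjustment over all genes tested. The labels do not say that the libraries of a group came from separate cultures, so the p-values measure the spread between these libraries only. Calls needed an adjusted p under 0.05 together with a change of more than 0.5 on the log2 scale in either direction. Tested jointly over the 6 groups, where the limit on the adjusted p was 0.001, edgeR called 0 of 42 members and 0.455% of all genes. At an unadjusted p below 0.05 it found 2 members, Ccnd1 and Ccnd2, and DESeq2 called 1, Ccnd2, with an adjusted p of 0.000664. In this test the members with the smallest unadjusted p were Ccnd1, Ccnd2, Cdk2, Mki67 and Rrm2, with edgeR adjusted p of 0.0751, 0.125, 0.801, 0.917 and 1. Libraries of the same number deviated together in every pair (correlation 0.24 to 0.722), so the replicate number was also entered as a block. Pairs with different numbers in different groups reached up to 0.404. The edgeR fit with the block called 8.93% of all genes in the joint test and 3 members, namely Ccnd2 (adjusted p = 0.000319), Ccnb2 (adjusted p = 8.06e-05) and Cenpa (adjusted p = 0.000782).

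The comparison of LNA2 with ctrlA, averaged over stimulation (6 libraries against 6), asks what a gapmer against Gm15551 does to these genes. With the replicate number as a block, 18 of 23 G2/M genes passed as lower with LNA2 by adjusted p alone, beside 11.2% of all genes, and without the block 0 did, beside 0.515%. The count of 18 became 2 when the libraries numbered 4 were left out, as given in full below. With the block Ccnd1 was higher. Without the block 0 of 42 members were called, against 1.42% of all genes, with 3 members at an unadjusted p below 0.05 and 1 call in DESeq2. The fitted log2 fold change was negative for 22 of 23 G2/M genes with a median of -0.25, for 7 of 10 S genes with a median of -0.05 and for 6 of 9 G1/S genes with a median of -0.08, beside a median of -0.02 over all genes. With the block 2 members were called, against 5.53% of all genes. They were Ccnd1, which was higher by 0.66 ± 0.14 (SE) on the log2 scale with an adjusted p of 0.00299 in edgeR, and Ccnb2, which was lower. Leaving out replicate 2 took the adjusted p of Ccnd1 to 0.0576 and its log2 fold change to 0.54, while without replicate 3, replicate 4 or the LNA2 library of isoproterenol numbered 3 the adjusted p was 0.0333, 0.00583 and 0.00284.

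Ccnd1 (ENSMUSG00000070348.5, chr7:144929931-144939925, minus strand, GRCm38) encodes cyclin D1, which couples growth signals to entry into the cycle. In unstimulated cells it was at 5.16, 6.49 and 7.26 CPM with ctrlA (replicates 2, 3 and 4), at 4.5, 7.1 and 6.51 CPM with LNA1, and at 9.83, 10.4 and 8.05 CPM with LNA2. With isoproterenol the values were 8.06, 9.46 and 7.25 CPM for ctrlA, 7.99, 11.6 and 6.04 CPM for LNA1, and 15.9, 15.6 and 10.1 CPM for LNA2. Within each stimulation the 3 LNA2 libraries lay above the 3 ctrlA libraries, and every library of LNA2 was higher than the ctrlA library of the same number. Without the block the log2 fold change was 0.66 ± 0.18 with an adjusted p of 0.094 in edgeR, and DESeq2 gave an adjusted p of 0.0209. Exons of Ccnd1 overlap those of LTO1 on the opposite strand in the annotation, and use of strand in counting was not stated.

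Ccnb2 (ENSMUSG00000032218.7, chr9:70407692-70421547, minus strand, GRCm38) encodes cyclin B2, a partner of CDK1 in mitosis. In unstimulated cells it was at 71, 50.6 and 43.6 CPM with ctrlA, at 57.9, 47 and 38.2 CPM with LNA1, and at 53.9, 35.9 and 29.9 CPM with LNA2. With isoproterenol the values were 75.9, 51.6 and 41.5 CPM for ctrlA, 70.8, 46.6 and 37.1 CPM for LNA1, and 50.7, 37.6 and 27.1 CPM for LNA2. The ranges of the groups overlapped, but within every replicate number LNA2 was the lowest of the LNAs in both states. The difference from ctrlA in the 6 pairs of the same number ranged from -0.61 to -0.40 on the log2 scale. With the block the log2 fold change was -0.51 ± 0.05 with an adjusted p of 1.07e-05 in edgeR, and without it -0.51 ± 0.22 with an adjusted p of 0.419. In the block fits without replicate 2, 3 or 4 the log2 fold change was -0.50, -0.53 and -0.48 with an adjusted p of 0.00146, 0.000533 and 0.005, so that the limit on the fold change was missed narrowly without replicate 2 or 4. The annotation names a pseudogene after Ccnb2, and reads from it could be divided between the genes.

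**Figure D4:**
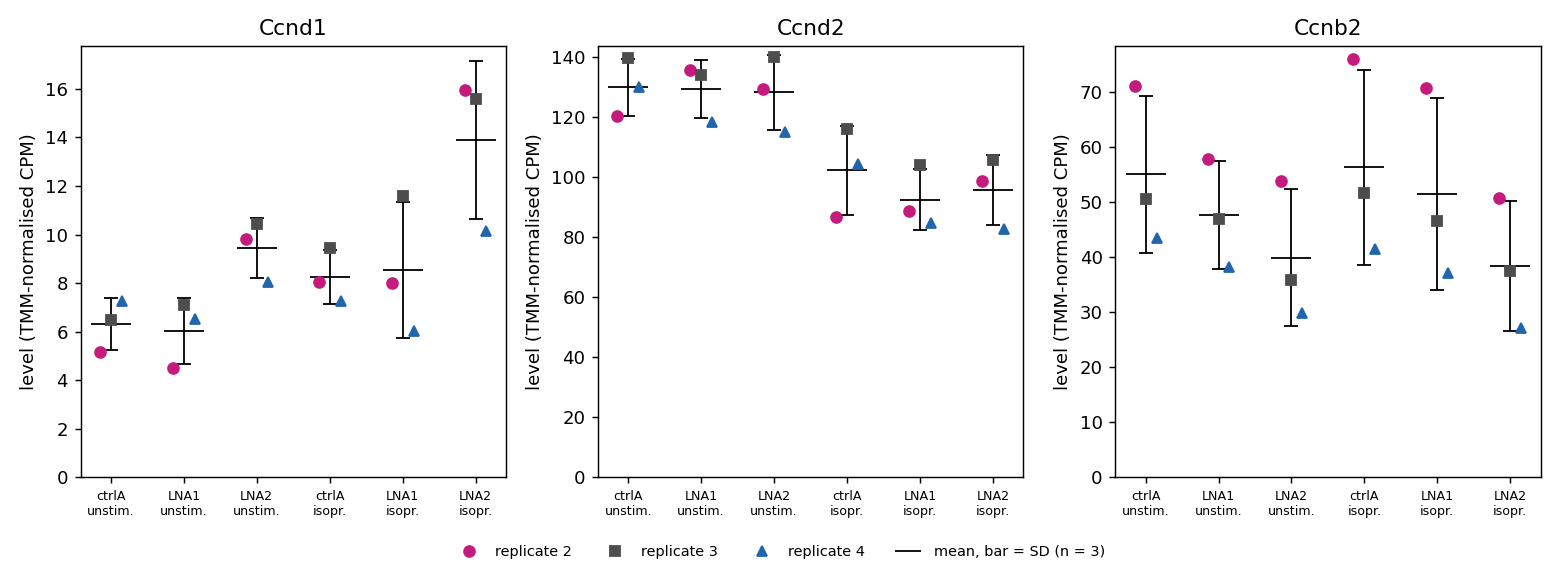
TMM-normalised CPM of Ccnd1, Ccnd2 and Ccnb2 in each library, by group, with the mean and SD of 3 libraries and the replicate numbers as symbols. Ccnd1 is highest in the LNA2 groups (8.05 to 15.9 CPM), Ccnd2 is lower in the isoproterenol groups (82.8 to 116 CPM), and Ccnb2 runs from 27.1 to 75.9 CPM with replicate 2 on top in every group.

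With the block but with no limit on the fold change, a combination chosen after the data were seen, 26 of 42 members had an adjusted p below 0.05 for LNA2 in edgeR, 25 of them lower and 1 higher. Of all genes 11.2% were lower by this rule and 9.43% higher. The lower members were 18 of the 23 G2/M genes, 4 S genes and 3 G1/S genes. The G2/M genes that did not pass were Cdc20, Aurkb, Plk1, Foxm1 and Mybl2, the last of which had a log2 fold change of 0.07 ± 0.09. The count of 18 was the same with the GC offset and in DESeq2 with the block, where 15.3% and 12.4% of all genes were lower, and 20 without the LNA2 library of isoproterenol numbered 3, beside 13.3% of all genes. It was 14 without replicate 2, 13 without replicate 3 and 2 without replicate 4, and the share of all genes moved with it to 5.33%, 8.41% and 2.96%. In these fits the median log2 fold change of the G2/M genes was -0.32, -0.23 and -0.21, beside -0.27 with all libraries, and 22, 23 and 21 of 23 were negative. Without the block it was 0, beside 0.515% of all genes. With the GC offset all 23 had a negative log2 fold change, with Mybl2 at -0.03, and E2f1, at 0.01 without block or offset, was lower by 0.11 with an adjusted p of 0.0328 in edgeR with both. By a simple count of pairs, 15 of 23 G2/M genes were lower with LNA2 than with ctrlA in all 6 pairs of the same number, or 65.2%, beside 12.1% of all genes tested. With LNA1, against the same ctrlA libraries, 9 of 23 were lower in all 6 pairs, or 39.1%, also beside 12.1% of all genes.

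Members that passed covered several steps of division. Among the mitotic cyclins and their kinase, Ccna2 was lower by 0.28 ± 0.05 on the log2 scale, Ccnb1 by 0.24 ± 0.07 and Cdk1 by 0.21 ± 0.05, with adjusted p of 0.000603, 0.016 and 0.00608 in edgeR with the block. Among the centromere and spindle genes, Cenpa, the histone variant of centromeres, had a log2 fold change of -0.35 ± 0.05, the spindle assembly factor Tpx2 -0.29 ± 0.05 and Nusap1 -0.41 ± 0.09. Aurka, a kinase of the spindle poles, stood at -0.27 ± 0.05, and the motors Kif11, Kif20a and Kif23 at -0.28, -0.30 and -0.20. The proliferation marker Mki67 was at -0.27 ± 0.08 and Top2a at -0.32 ± 0.06. Of the S genes, Rrm2, Tyms, Rrm1 and Mcm6, which make nucleotides or unwind DNA, passed with -0.24, -0.24, -0.16 and -0.13. Pcna, at -0.03 ± 0.06, and Mcm2, Mcm3, Mcm4, Mcm5 and Mcm7 did not. Of the G1/S genes, Cdk4 had -0.23 ± 0.05, Cdc6, a loader of the helicase, -0.20 ± 0.06, and Cdk2 -0.18 ± 0.06. Of these 7 S and G1/S genes Cdk4, Cdc6 and Rrm2 still passed without replicate 2, Cdk4, Mcm6 and Tyms without replicate 3, and 0 without replicate 4. Without the block the members with the smallest unadjusted p were Ccnd1 (0.66), Ccnb2 (-0.51), Cdk2 (-0.18), Cdk4 (-0.22) and Tpx2 (-0.28), each with its log2 fold change.

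The values behind these are best read within a replicate number. Top2a was at 490, 348 and 299 CPM in unstimulated ctrlA and at 463, 308 and 227 CPM in unstimulated LNA2, then at 551, 422 and 335 CPM in stimulated ctrlA and at 491, 264 and 247 CPM in stimulated LNA2. Ccna2 was at 202, 138 and 120 CPM and at 188, 123 and 99.7 CPM in the unstimulated groups, and at 229, 166 and 141 CPM and at 202, 115 and 104 CPM in the stimulated groups. Each LNA2 library lay below the ctrlA library of its number, while the ranges of the groups overlapped. Mki67 was at 294, 303 and 249 CPM in unstimulated ctrlA and at 292, 289 and 194 CPM in unstimulated LNA2, and at 266, 318 and 224 CPM and at 256, 179 and 181 CPM after isoproterenol. Aurka was at 95.5, 80.9 and 66.8 CPM and at 86.1, 68 and 57.4 CPM in the unstimulated groups. Plk1, a kinase of mitotic entry, was at 28.5, 48 and 42.3 CPM in unstimulated ctrlA, at 25.9, 36.4 and 32.9 CPM in unstimulated LNA2, at 29.5, 50.9 and 49.9 CPM in stimulated ctrlA and at 32.8, 56.4 and 28.3 CPM in stimulated LNA2, so its pairs differed in direction. With LNA1 Top2a was at 478, 333 and 279 CPM unstimulated and 490, 345 and 273 CPM stimulated, and Mki67 at 321, 314 and 239 and 250, 262 and 201 CPM.

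Markers of other cells also differed with LNA2. The macrophage and leukocyte markers, of which Cd68 and Csf1r passed the filter, summed to 8.23 to 12.7 CPM in unstimulated ctrlA, to 14.1 to 28.6 CPM in unstimulated LNA2, to 12.2 to 24.9 CPM in stimulated ctrlA and to 26.1 to 44.6 CPM in stimulated LNA2, with Ptprc, Adgre1 and Cd3e at 3 counts or fewer. With the block Cd68 was called higher with LNA2 by 0.88 on the log2 scale (adjusted p = 7.74e-05 in edgeR). Csf1r, at 1 to 33 counts per library, was called higher by 1.71 (adjusted p = 0.00677). The preadipocyte and fibroblast markers summed to 268 to 532 CPM in unstimulated ctrlA and to 243 to 366 CPM in unstimulated LNA2, and to 338 to 548 and 323 to 520 CPM after isoproterenol. Most of this sum was Col1a1 and Col3a1, and single markers went both ways. Pdgfra was called higher with LNA2, by 0.71 ± 0.13 on the log2 scale (adjusted p = 0.0121 in edgeR), and with the block Ly6a was called higher by 0.66 and Col3a1 lower by 0.62. The median over the 7 markers tested was 0.20. The part of either in the result was not tested.

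Split by stimulation, LNA2 called 0 members in unstimulated cells, against 0.194% of all genes, and 0 in stimulated cells, against 0.207%, without the block in edgeR. Only 1 member in each, Ccnd1, had an unadjusted p below 0.05, and DESeq2 called 0 in both. In unstimulated cells the members with the smallest unadjusted p were Ccnd1 (0.58), Cdk2 (-0.20), Cdk4 (-0.22), Ccnb2 (-0.47) and Cdc20 (-0.28), and in stimulated cells Ccnd1 (0.75), Mki67 (-0.39), Tpx2 (-0.36), Ccnb2 (-0.55) and Cenpa (-0.44), as log2 fold changes. With the block 3 members were called in stimulated cells, against 5.51% of all genes, namely Ccnd1 (0.74 ± 0.19, adjusted p = 0.0176), Ccnb2 (-0.55 ± 0.08, adjusted p = 0.000399) and Nusap1 (-0.59, adjusted p = 0.00912). Without the LNA2 library numbered 3 these were 0.77, -0.59 and -0.37 with adjusted p of 0.0308, 0.000525 and 0.00727 in edgeR with the block, so Nusap1 then missed the limit on the fold change. By adjusted p alone with the block, 16 of 23 G2/M genes were lower in stimulated cells, where 7.69% of all genes were, and 2 in unstimulated cells, where 2.26% of all genes were. The count of 16 was 11 without replicate 2, 3 without replicate 3, 2 without replicate 4 and 14 without the LNA2 library numbered 3, where 2.46%, 2.86%, 2.11% and 6.42% of all genes were lower. The interaction of LNA2 and isoproterenol was called for 0 of 42 members and 0% of all genes, with 0 members at an unadjusted p below 0.05 in edgeR and 0 calls in DESeq2, so a difference between the states was not shown. Its smallest unadjusted p belonged to Rrm2 (-0.32), Mki67 (-0.26), Mcm5 (0.26), Cdc20 (0.20) and Mcm2 (0.27).

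**Figure D5:**
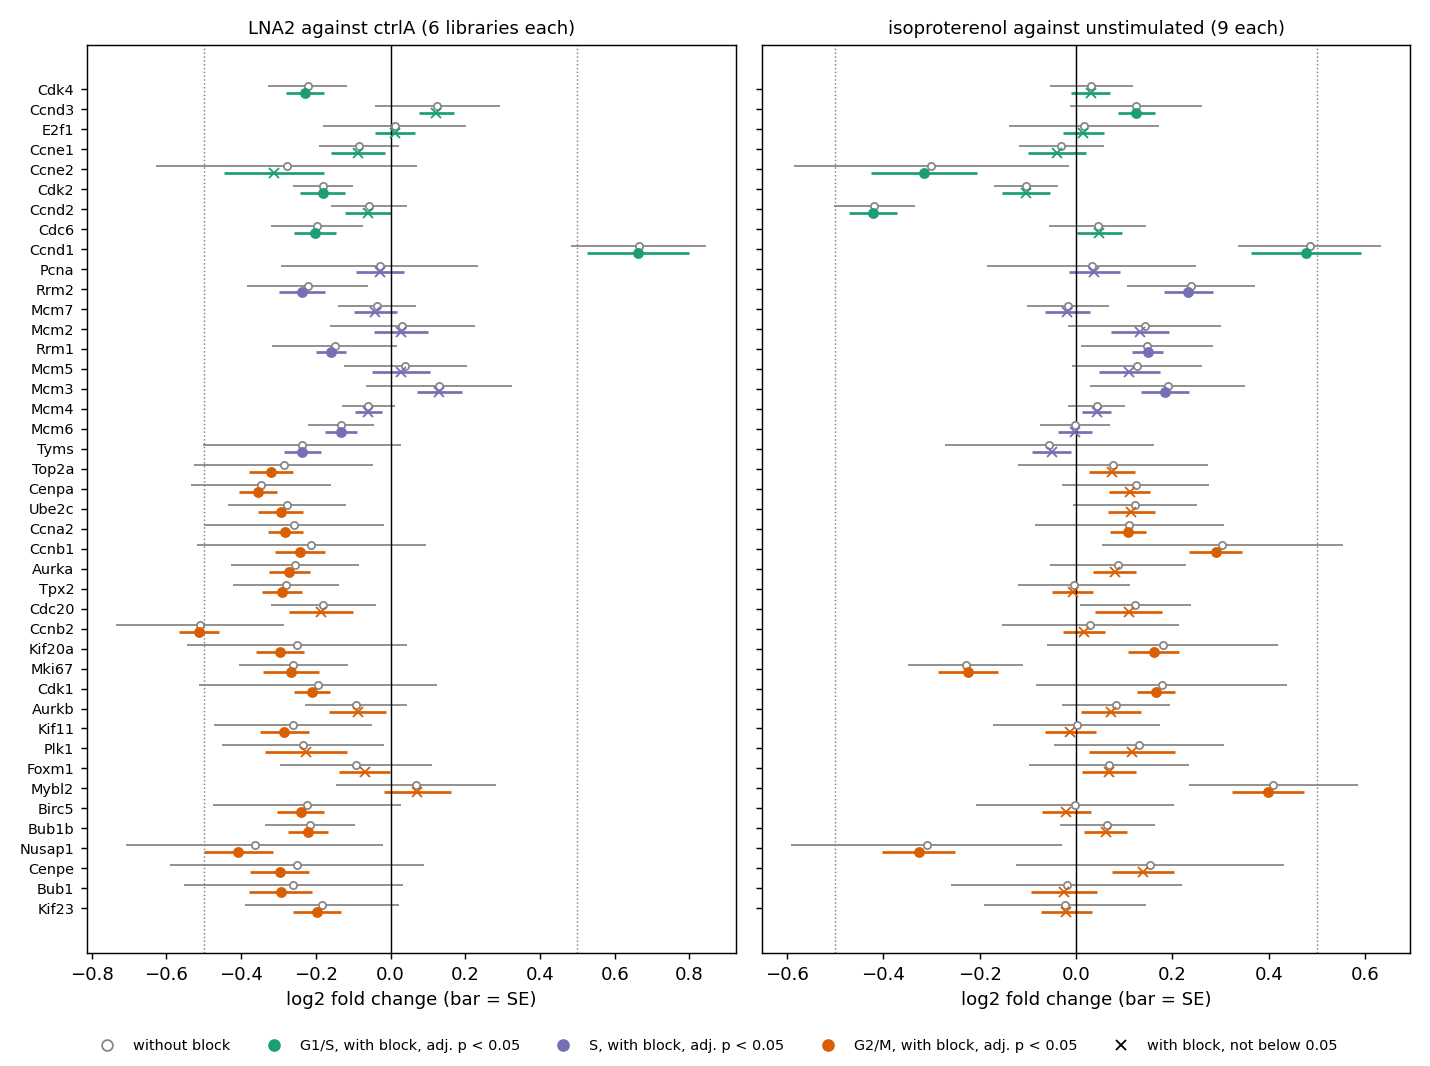
Log2 fold change with SE of each of the 42 genes for LNA2 against ctrlA (left) and isoproterenol against unstimulated (right), without the replicate block (open grey points) and with it (coloured by phase, crosses where the adjusted p was not below 0.05). On the left 22 of 23 G2/M genes lie below 0 and Ccnd1 lies at 0.66, and on the right Ccnd2 lies at -0.42 and the G2/M genes lie on both sides. Dotted lines mark the fold limit of 0.5.

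Promoters of most G2/M genes with a window shared sequence motifs, which are described here by phase. RefSeq promoter windows of 300 bases (250 before and 50 after the start, build GRCm38.p6) were matched by symbol for 33 of 42 members, with 35 windows, and none was matched for Ccna2, Ccnd1, Ccnd2, Ccne2, Aurkb, Foxm1, Kif20a, Mcm4 and Tpx2. The cell cycle homology region, searched as TTTGAA or TTTAAA on both strands, was found in 15 of 18 windows of G2/M genes (83.3%), in 3 of 10 windows of S genes, in 1 of 7 windows of G1/S genes and in 27.6% of all 32851 windows. CCAAT was found in 15 of 18 windows of G2/M genes, in 9 of 10 of S genes and in 2 of 7 of G1/S genes, beside 37.4% of all windows. Both motifs together stood in 14 of 18 windows of G2/M genes (77.8%), in 3 of 10 of S genes (30%), in 0 of 7 of G1/S genes and in 10.7% of all windows. The motifs did not mark off the G2/M genes that passed as lower with LNA2 by adjusted p alone with the block. Of the 14 with both, Plk1 and Cdc20 did not pass and the rest did. Nusap1, which passed, and Mybl2, which did not, held neither motif. Birc5, without CCAAT, and Bub1, without the homology region, both passed. An E2F motif, searched as TTTCGCGC, TTTGGCGC, TTTCCCGC or TTTGCCGC, was found in 1 of 18 windows of G2/M genes, 4 of 10 of S genes, 2 of 7 of G1/S genes and 2.26% of all windows. The cAMP response element TGACGTCA was found in 1 window of the G2/M genes (Cenpe) and 1 of the S genes (Mcm5), beside 1.79% of all windows. In 4 windows of members matches overlapped each other. A match describes letters and does not show binding.

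The windows of Ccnb2, Cenpa, Cdk1 and Mcm6 are printed 5′ to 3′ on the strand of the gene, the 3 former as G2/M genes with both motifs and the last as an S gene with E2F motifs and no homology region. They lie at chr9:70421505-70421804 (minus strand), chr5:30666636-30666935 (plus strand), chr10:69352863-69353162 (minus strand) and chr1:128359656-128359955 (minus strand). Capitals mark the homology region, CCAAT (or its complement ATTGG) and the E2F motifs.
Ccnb2: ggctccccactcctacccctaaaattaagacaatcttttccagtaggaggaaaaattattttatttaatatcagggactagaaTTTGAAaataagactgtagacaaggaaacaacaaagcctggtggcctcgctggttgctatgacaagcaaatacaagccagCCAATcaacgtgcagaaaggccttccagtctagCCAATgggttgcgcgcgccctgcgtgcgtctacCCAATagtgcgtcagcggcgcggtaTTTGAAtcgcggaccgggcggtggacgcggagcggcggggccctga
Cenpa: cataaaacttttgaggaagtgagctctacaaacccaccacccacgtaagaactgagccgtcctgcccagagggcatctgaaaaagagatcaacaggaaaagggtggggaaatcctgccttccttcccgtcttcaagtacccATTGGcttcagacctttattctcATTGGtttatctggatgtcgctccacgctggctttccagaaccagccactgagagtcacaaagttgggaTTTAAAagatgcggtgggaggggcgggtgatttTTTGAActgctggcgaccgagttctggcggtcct
Cdk1: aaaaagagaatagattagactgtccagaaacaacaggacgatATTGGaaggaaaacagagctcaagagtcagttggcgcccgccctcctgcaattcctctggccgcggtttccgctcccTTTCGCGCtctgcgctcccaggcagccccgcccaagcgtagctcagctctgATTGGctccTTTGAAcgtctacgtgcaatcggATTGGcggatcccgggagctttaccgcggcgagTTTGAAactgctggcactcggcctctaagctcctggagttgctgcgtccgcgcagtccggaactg
Mcm6: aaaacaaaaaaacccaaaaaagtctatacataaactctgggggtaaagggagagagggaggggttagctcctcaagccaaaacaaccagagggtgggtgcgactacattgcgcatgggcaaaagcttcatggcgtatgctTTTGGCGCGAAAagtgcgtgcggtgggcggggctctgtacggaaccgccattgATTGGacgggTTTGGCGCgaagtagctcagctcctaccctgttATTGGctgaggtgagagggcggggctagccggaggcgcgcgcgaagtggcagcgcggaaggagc

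Fewer members passed with LNA1. Averaged over stimulation it called 0 of 42 members, against 0.442% of all genes, with 1 member (Cdk2) at an unadjusted p below 0.05 in edgeR and 0 calls in DESeq2. Log2 fold changes were negative for 39 of 42 members, with medians of -0.12 for the G1/S, -0.07 for the S and -0.13 for the G2/M genes beside -0.02 over all genes. The members with the smallest unadjusted p were Cdk2 (-0.18), Cdc6 (-0.19), Bub1b (-0.19), Ccne1 (-0.13) and Cenpa (-0.23). With the block 0 members were called, against 2.43% of all genes. By adjusted p alone with the block 4 were lower, namely Cdc6 (-0.19), Cenpa (-0.23), Bub1b, a checkpoint kinase (-0.18), and Rrm1 (-0.16), against 4.03% of all genes. With the GC offset added to the block 12 members passed by adjusted p alone, beside 13.7% of all genes in either direction. The comparisons of LNA1 and of LNA2 share the ctrlA libraries. Ccnd1 had a log2 fold change of -0.02 ± 0.14 with LNA1 in the fit with the block. Of the 7 preadipocyte and fibroblast markers tested, Pdgfra was called higher with LNA1, by 0.89 ± 0.13 (adjusted p = 0.00743 in edgeR), and their median was -0.12. Its mean was 7.75 CPM in unstimulated ctrlA and 14.1 CPM in unstimulated LNA1, and 7.06 and 13.4 CPM after isoproterenol. The part of this in the result was not tested.

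Split by stimulation LNA1 called 0 members in each state, with 0 members at an unadjusted p below 0.05 and 0 calls in DESeq2, against 0% of all genes in unstimulated cells and 0.0134% in stimulated cells. The smallest unadjusted p in unstimulated cells belonged to Cdk2 (-0.20), Cdk4 (-0.12), Bub1b (-0.13), Cenpa (-0.18) and Ccne1 (-0.10), and in stimulated cells to Cdc6 (-0.32), Bub1b (-0.24), Cdk2 (-0.15), Ube2c (-0.29) and Cdc20 (-0.21). The interaction of LNA1 and isoproterenol was called for 0 of 42 members and 0% of all genes, with 0 members at an unadjusted p below 0.05 and 0 calls in DESeq2, and its smallest p belonged to Cdc6 (-0.26), Mki67 (-0.23), Ccnd2 (-0.14), Ube2c (-0.21) and Kif23 (-0.24).

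The LNAs against Gm15551 were also compared with each other. LNA2 against LNA1 called 0 of 42 members, against 0.923% of all genes, with 1 member (Ccnd1) at an unadjusted p below 0.05 in edgeR, and DESeq2 called Ccnd1 with an adjusted p of 0.0288. The members with the smallest unadjusted p were Ccnd1 (0.67), Ccnb2 (-0.34), Mki67 (-0.19), Mcm6 (-0.09) and Tpx2 (-0.14). With the block 1 member was called, against 4.11% of all genes, namely Ccnd1 at 0.68 ± 0.14 (adjusted p = 0.00399 in edgeR), with an adjusted p of 0.0985, 0.0207 and 0.0153 without replicates 2, 3 and 4. By adjusted p alone 3 members were lower with LNA2 than with LNA1, against 7.2% of all genes, namely Ccnb2 (-0.35 ± 0.05), Kif20a (-0.23 ± 0.06) and Kif23 (-0.20 ± 0.06). Ccnb2 still passed without any one replicate number. Without replicate 4 Kif20a was at -0.16 (adjusted p = 0.224 in edgeR) and Kif23 at -0.09 (adjusted p = 0.509), and without replicate 3 neither passed. Of the markers of other cells Ly6a was called higher with LNA2 than with LNA1 with the block, by 0.51 (adjusted p = 0.0307), as was Csf1r by 2.06 (adjusted p = 0.00496), and their part in the result was not tested. For the other G2/M genes a difference between the LNAs was not shown, although 22 of 23 had a negative log2 fold change.

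Isoproterenol, which raised Ucp1 by 3.51 ± 0.17 on the log2 scale (adjusted p = 1.12e-08 in edgeR), went with lower Ccnd2. By adjusted p alone with the block Ccnd1 and Ccnd3 were higher, as were 14.2% of all genes. Ccnd1 did not pass by this rule without replicate 2 or 3. Averaged over the LNAs (9 libraries against 9) isoproterenol called 0 of 42 members, against 3.2% of all genes, with 3 at an unadjusted p below 0.05 and 0 calls in DESeq2. With no limit on the fold change 1 member, Ccnd2, was lower, as were 1.91% of all genes. Ccnd2 (ENSMUSG00000000184.12, chr6:127125162-127152193, minus strand, GRCm38) encodes cyclin D2. It was at 121, 140 and 130 CPM in unstimulated ctrlA, at 136, 134 and 118 CPM in unstimulated LNA1 and at 130, 140 and 115 CPM in unstimulated LNA2. With isoproterenol it was at 86.7, 116 and 104 CPM, at 88.7, 104 and 84.8 CPM and at 98.7, 106 and 82.8 CPM in the same order. The stimulated library was the lower in all 9 pairs of the same LNA and number, and the ranges of 9 and 9 libraries overlapped only between 115 and 116 CPM. The log2 fold change was -0.42 ± 0.08 with an adjusted p of 0.00763 in edgeR, and -0.42 ± 0.05 with an adjusted p of 1.09e-05 with the block. Its adjusted p stayed below 0.05 in all 18 fits that left out 1 library. Without the block it was 0.0145 on leaving out replicate 2 but 0.144 and 0.226 on leaving out replicate 3 or 4, and with the block it was 0.00102, 0.000285 and 0.00112. Exons of Ccnd2 overlap 9330179D12Rik and Gm43126 on the opposite strand.

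Ccnd1 was higher with isoproterenol by 0.48 ± 0.15 on the log2 scale (adjusted p = 0.0841 in edgeR), in 7 of 9 pairs, with an adjusted p of 0.00538 with the block and 0.0303 in DESeq2. With the block and without replicate 2, 3 or 4 the adjusted p was 0.121, 0.0823 and 0.0017. It was called, without the block, when the isoproterenol library numbered 4 of LNA1 or of LNA2 was left out, with log2 fold changes of 0.55 in both. Ccnd3, the most abundant D-type cyclin, was at 134, 199 and 183 CPM in unstimulated ctrlA and at 148, 196 and 197 CPM after isoproterenol, at 133, 191 and 199 CPM and at 145, 233 and 211 CPM with LNA1, and at 143, 207 and 200 CPM and at 159, 240 and 203 CPM with LNA2. It was higher in 8 of 9 pairs, by 0.13 ± 0.04 on the log2 scale with the block. Their kinase Cdk4 was at 277, 244 and 253 CPM in unstimulated ctrlA and at 284, 251 and 256 CPM after isoproterenol, with LNA2 at 259, 204 and 200 CPM and at 262, 220 and 198 CPM. It was lower with LNA2 in all 6 pairs and did not pass for isoproterenol.

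With the block and no limit on the fold change 14 members passed for isoproterenol in edgeR, 10 higher and 4 lower, beside 14.2% of all genes higher and 12.2% lower. Beside the D-type cyclins the higher ones were Rrm1 (0.15), Rrm2 (0.23) and Mcm3 (0.18) of the S genes and Ccna2 (0.11), Kif20a (0.16), Cdk1 (0.17), Ccnb1 (0.29) and Mybl2 (0.40), which encodes B-MYB, of the G2/M genes. The lower ones were Ccnd2, Ccne2 (-0.31), Nusap1 (-0.33) and Mki67 (-0.22). Genes of mitosis thus lay on both sides in the fit with all libraries. The count of 14, beside 26.4% of all genes in either direction, was 4, 11 and 9 without replicates 2, 3 and 4, beside 13.1%, 21.8% and 19.3%. Of these, 2, 6 and 8 were higher and 2, 5 and 1 lower. Without replicate 4 the only lower member was Ccnd2, so genes of mitosis did not pass as lower there. The count was 17, beside 29.8%, without the LNA2 library of isoproterenol numbered 3, where Ccne2, Nusap1 and Mki67 still passed with -0.21, -0.25 and -0.17. Rrm2 was at 252, 218 and 206 CPM in unstimulated ctrlA and at 335, 301 and 248 CPM after isoproterenol, and with LNA2 at 264, 206 and 177 CPM and at 292, 187 and 200 CPM. Ccnb1 was at 171, 103 and 93.4 CPM and at 229, 136 and 110 CPM in the ctrlA groups, so that each stimulated library was the higher of its number while the ranges overlapped. Without the block the members with the smallest unadjusted p were Ccnd2, Ccnd1, Mybl2 (0.41), Mki67 (-0.23) and Rrm2 (0.24).

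Within single LNAs isoproterenol called 0 members with ctrlA, 0 with LNA1 and 0 with LNA2, against 0.488%, 0.702% and 0.395% of all genes, with 1, 1 and 2 members at an unadjusted p below 0.05 in edgeR, and DESeq2 called 0 in all of them. With the block 1 member, Nusap1, was called with LNA2 (-0.51, adjusted p = 0.0244), against 4.25% of all genes. Without the stimulated library numbered 3 it was at -0.29 with an adjusted p of 0.0293, which missed the limit on the fold change. The smallest unadjusted p with ctrlA belonged to Ccnd2 (-0.35), Rrm2 (0.39), Ccnd1 (0.39), Mybl2 (0.41) and Cdk2 (-0.13), with LNA1 to Ccnd2 (-0.48), Ccnd1 (0.50), Mki67 (-0.29), Mybl2 (0.41) and Rrm2 (0.26), and with LNA2 to Ccnd2 (-0.42), Ccnd1 (0.56), Mki67 (-0.33), Cdc20 (0.30) and Mybl2 (0.41). Ccnd2 was thus the leading member in each LNA. Of the macrophage and leukocyte markers 2 were tested, and Cd68 alone was called with isoproterenol, higher by 0.90 ± 0.18 on the log2 scale (adjusted p = 0.00618 in edgeR). Of the 7 preadipocyte and fibroblast markers tested Ly6a alone was called, higher by 1.58 ± 0.41 (adjusted p = 0.0415), with a median of -0.03 over these 7. The adipocyte markers summed to 15798 to 25892 CPM unstimulated and 12076 to 19131 CPM stimulated. Most of this sum was Fabp4, which was not called. Of the 10 adipocyte markers 3 were called, Ucp1 and Cidea higher and Adipoq lower, with a median of -0.25 over the 10. Their part in these results was not tested.

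Of the wider pathway, CDK inhibitors and pocket proteins numbered 11 in the table with 10 tested. With isoproterenol 1 of 10, Cdkn2b, which inhibits CDK4, was called, lower by 0.52 ± 0.08 on the log2 scale with an adjusted p of 0.000801 in edgeR, beside 3.2% of all genes called, and with the LNAs 0 were, with 1 at an unadjusted p below 0.05 for LNA1 and 2 for LNA2. Its mean was 22 CPM in unstimulated and 14.8 CPM in stimulated ctrlA, with LNA1 18.5 and 12.4 CPM and with LNA2 18 and 13.7 CPM. Cdkn1a, which encodes p21, was far more abundant at 395 to 792 CPM, with log2 fold changes of -0.15 ± 0.14 with isoproterenol, -0.14 ± 0.17 with LNA1 and 0.12 ± 0.17 with LNA2. Cdkn1b was at 46 to 149 CPM with -0.20 ± 0.16, -0.04 ± 0.19 and -0.30 ± 0.19, and Cdkn2a at 129 to 309 CPM with -0.30 ± 0.12, -0.24 ± 0.15 and -0.05 ± 0.15. None of these 3 was called. With the block and no limit on the fold change Cdkn1a and Cdkn2a were lower with isoproterenol, by 0.15 and 0.31, with adjusted p of 0.00422 and 0.00472 in edgeR. Of 13 other E2F and DREAM or MuvB genes, 37 other replication genes and 57 other mitosis genes, all tested, 0 were called for LNA1, LNA2 or isoproterenol without the block, beside 0.442%, 1.42% and 3.2% of all genes. At an unadjusted p below 0.05 there were 2, 0 and 3 of them for LNA2, 0, 0 and 0 for LNA1 and 1, 0 and 1 for isoproterenol in edgeR, and DESeq2 was not counted for these lists. The other mitosis genes had a median log2 fold change of -0.18 with LNA2 and -0.10 with LNA1. With the block 1 of 57, Ect2, the activator of the cleavage furrow, was called for LNA2, lower by 0.94 ± 0.09 with an adjusted p of 4.87e-06, where 5.53% of all genes were called. Without the block Ect2 was at -0.89 ± 0.30 with an adjusted p of 0.202. In stimulated cells 0 of 57 were called for LNA2 without the block, with 1 at an unadjusted p below 0.05 in edgeR, and 9 were called lower with the block, beside 2.2% of all genes called lower, namely Ect2, Spc25, Kif20b, Sgo2a, Pttg1, Ckap2l, Smc2, Smc4 and Ncapg. Once the GC offset was added 2 of 57 were called, beside 4.39% of all genes called in either direction and 1.76% called lower. Of the other lists Cdkn3 and Pola1 were called lower and E2f6 higher there with the block. With the GC offset Pola1 was at -0.33 and missed the limit on the fold change.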

How the data were processed

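The deposited table holds expected counts per gene for 18 libraries, as whole numbers. The authors sequenced polyadenylated RNA, used cutadapt for trimming and salmon for quantification, with Gencode M22 on GRCm38, so counts are estimates that divide reads between similar transcripts. Use of strand in counting was not stated. Exons of 13 members overlap a gene on the opposite strand, among them Ccnd3, Cdk4, Ccne2, Ccna2, Kif20a and Nusap1. The annotation names pseudogenes after 5 members, namely Ccnd3, Pcna, Tyms, Ccnb1 and Ccnb2. Library totals were 9167560 to 19723021 counts, and the floor of 3 counts corresponds to 0.17 to 0.306 CPM, which covers counting error only. Groups came from the sample titles.

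Genes were kept by filterByExpr (minimum count 10, minimum total 15), normalised by TMM and tested with edgeR 4.0.16 (R 4.3.3) by the quasi-likelihood test over all 18 libraries, with Benjamini-Hochberg adjustment over 14949 genes. DESeq2 1.42.0, a replicate block, other filters and scaling and leaving out libraries were tried as alternatives. Same-numbered libraries deviated together in all 45 pairs, with correlations from 0.24 to 0.722, so the numbers were taken to pair the libraries. GC content and length came from the GENCODE M21 annotation, which held 99.53% of the genes.

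Named were Ccnd1, Ccnd2, Ccnd3, Cdk4, Mcm2, Mcm5, Pcna, Rrm2, Mki67, Top2a, Cdk1, Ccna2, Ccnb1, Plk1 and Aurka, the 5 members with the smallest p in each comparison, and members that passed a test. Members, phases and lists were chosen with earlier results of these data known. Figures were drawn with matplotlib 3.10.9.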

Additional observations from a re-analysis of the deposited data

How the results depend on the processing

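The numbers of called members are small and move with the replicate block. In edgeR over all 18 libraries without the block 0 members were called in all 14 comparisons. With the replicate block 3 were called in the joint test, 2 for LNA2, 1 for LNA2 against LNA1, 3 for LNA2 in stimulated cells and 1 for isoproterenol with LNA2, beside 8.93%, 5.53%, 4.11%, 5.51% and 4.25% of all genes. With the block and a GC offset, added after the data were seen, the counts were 10 in the joint test, 2 for LNA2, 1 for LNA2 against LNA1 and 2 for LNA2 in stimulated cells, beside 13.9%, 5.38%, 4.09% and 4.39% of all genes. DESeq2 called 1 in the joint test, 1 for LNA2 and 1 for LNA2 against LNA1, beside 3.72%, 2.26% and 1.55%. By adjusted p alone without the block 1 member passed for isoproterenol, beside 4.58%. By adjusted p alone with the block, also added after the data were seen, 4 members passed for LNA1, 26 for LNA2, 4 for LNA2 against LNA1 and 14 for isoproterenol, beside 7.8%, 20.6%, 15.4% and 26.4% of all genes. By the same rule 1 passed for LNA1 in stimulated cells, and 3 and 20 for LNA2 in unstimulated and stimulated cells, beside 2.56%, 4.8% and 14.6%, and 5, 1 and 2 passed for isoproterenol with ctrlA, LNA1 and LNA2, beside 7.88%, 9.84% and 9.55%. Without the block, leaving out 1 library or replicate number in edgeR gave 0 to 1 calls for LNA2, for LNA2 in stimulated cells (Nusap1 without replicate 2 in both) and for isoproterenol (Ccnd1 without replicate 4 of stimulated LNA1 or LNA2), and 0 in the other comparisons. With the block and without replicate 4, Ccnd1 and Ccnb2 still passed both limits for LNA2 in stimulated cells. Ccnd1 did so there for LNA2 against LNA1. The 18 G2/M genes lower with LNA2 with the block became 0 with no replicate block and 2 to 14 on leaving out a replicate number, where 2.96% to 8.41% of all genes were lower and the median log2 fold change of all 23 lay between -0.32 and -0.21, and the 16 in stimulated cells became 0 and 2 to 11. Ccnd1 and Ccnb2 with LNA2 and Ccnd2 with isoproterenol kept their sign under these settings. Differences near 0 changed sign, such as Pcna with LNA2, at -0.03 without and 0.05 with the block and GC offset. The cause of these moves was not tested. The lowest count of a member, 53, belonged to Ccnd1.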
